A study of Rattus norvegicus with 12 samples.

Results

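The transcripts of 48 lysosomal genes were followed in N27, a dopaminergic neural line of rat cells, with and without fipronil, a phenylpyrazole insecticide that blocks GABA-gated chloride channels. The genes were taken from a list of acid hydrolases, their activators and targeting enzyme, and proteins of the lysosomal membrane, and matched by gene symbol. Of the 48 genes, 47 had a probe on the one-colour Agilent rat array under their current or an older symbol, on 51 of its 45598 non-control probes, and the array named 36181 genes in all. Cells received 25 µM fipronil for 24 h (6 samples) or were left untreated (6 samples), and 1 array was hybridised for each sample. The label field that describes the treatment names 25 µM fipronil for every sample, controls included, so the groups follow the sample titles and the treatment characteristic. The labels give no vehicle for the controls and do not say whether the samples were separate cultures, so p-values describe only how much these samples vary, and that variation may be technical.

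Lysosomes are acidic compartments in which proteins, glycans, glycosaminoglycans, lipids and nucleic acids from endocytosis and autophagy are broken down. Most soluble hydrolases travel there on mannose 6-phosphate receptors, and the limiting membrane holds heavily glycosylated structural proteins, channels and transporters. Many lysosomal genes carry E-box-like elements near their start sites, known as CLEAR elements, that bind transcription factors of the TFEB, TFE3 and MITF family. Neurons depend on this system, and loss of single hydrolases causes lysosomal storage diseases that often reach the brain.

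A promoter window of 300 bases, 250 before to 50 after the start, was found for 39 of the 48 genes in RefSeq's GRCr8 annotation. The full 10-base CLEAR palindrome was present in 1 of these 39 genes, Galc, and in 0.233% of all 33469 windows. Its 8-base core TCACGTGA was present in 5 genes (Cln3, Ctsd, Galc, Lamp1 and Mcoln1) and in 0.777% of windows. The inner hexamer CACGTG was present in 11 genes (28.2%) and in 6.42% of windows. A related hexamer, CACATG or CATGTG on the other strand, was added after the sequences had been seen and was present in 12 genes (30.8%) and in 14% of windows. The palindromes read alike on both strands, and each longer one contains the shorter. A match here describes letters in a window and not a bound site.

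The 100 bases before the start are shown for the 5 members that rose with fipronil and had either hexamer in their window, with the hexamers in capitals, 5′ to 3′ on the strand of the gene. They lie at chr10:105028255-105028354 (Gaa, plus strand), chr8:122963618-122963717 (Glb1, plus), chr12:6358158-6358257 (Mcoln1, plus), chr4:79341028-79341127 (Gpnmb, plus) and chr1:169515940-169516039 (Tpp1, minus), all in GRCr8.
Gaa: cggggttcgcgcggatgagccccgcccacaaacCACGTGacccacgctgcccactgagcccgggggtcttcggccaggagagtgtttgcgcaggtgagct
Glb1: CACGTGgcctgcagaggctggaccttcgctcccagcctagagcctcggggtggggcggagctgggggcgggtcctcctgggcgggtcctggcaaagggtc
Mcoln1: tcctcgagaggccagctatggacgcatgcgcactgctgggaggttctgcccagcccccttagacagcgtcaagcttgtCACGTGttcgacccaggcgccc
Gpnmb: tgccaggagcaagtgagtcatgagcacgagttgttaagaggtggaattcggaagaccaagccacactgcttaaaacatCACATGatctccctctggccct
Tpp1: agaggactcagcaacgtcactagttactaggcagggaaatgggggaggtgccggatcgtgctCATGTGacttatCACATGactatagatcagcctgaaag
The CACGTG of Gaa began 67 bases before the start and that of Glb1 100 bases before it. Mcoln1 had a CACGTG beginning 22 bases before the start and a further one after it, within TCACGTGA. Tpp1 had the related hexamer at 38 and 26 bases before the start, and Gpnmb at 22. Of the 6 members that rose and had a window, 3 held CACGTG, against 5 of the 24 that were tested without passing, and 2 held the related hexamer, against 7 of the 24.

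The 12 arrays came from 3 slides. Slide 1 held control samples 2 and 3 and fipronil samples 7 and 8, slide 2 only controls (5 to 8) and slide 3 only fipronil samples (1 to 4). The 75th percentile of the processed signal, to which each array was scaled, ranged from 245 to 279 on slide 1, from 379 to 472 on slide 2 and from 111 to 140 on slide 3. Between 40.8% and 50.02% of spots were well above background, with the lower shares on slide 3. Slide and treatment therefore cannot be told apart across slides 2 and 3, and the difference on slide 1 is given beside the results of the genes described. Where a p is given for it, it comes from a limma fit of all 12 arrays with slide as a fixed block, called the slide-blocked fit. Values below are log2 signals relative to the 75th percentile of the same array, so 0 is that percentile and a difference of 1 is a doubling.

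Fipronil-treated samples had higher signals for part of the lysosomal set, led by the glycogen-degrading α-glucosidase Gaa, the tripeptidyl peptidase Tpp1 and the melanosomal and lysosomal glycoprotein Gpnmb. Over all 12 arrays, 9 of the 39 members tested rose (limma, Benjamini-Hochberg adjusted p under 0.05 over 13542 genes), which is 23.1% of them, while 5.01% of all genes tested were called in either direction and 2.24% were called higher. None of the 39 was called lower, against 2.77% of all genes. The members were chosen with earlier results of these data known, so these shares are no independent evidence of a rise. At an unadjusted p under 0.05, 18 members were higher and 1 lower, with 9.37% and 15.7% of all genes. The 9 were Gaa, Tpp1, Acp2, Mcoln1, Ctsb, Gpnmb, Glb1, Arsb and Scpep1. The difference was above 0 in 32 of the 39 members, against 40.3% of all genes tested, and its median was 0.23 for the members and -0.08 for all genes. Every fipronil array lay above every control array for 5 members (Gaa, Tpp1, Acp2, Ctsb and Asah1; 1.63% of all genes). Every fipronil array lay below every control array for 2.55% of all genes, and for no member with fipronil arrays above background.

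**Figure D1:**
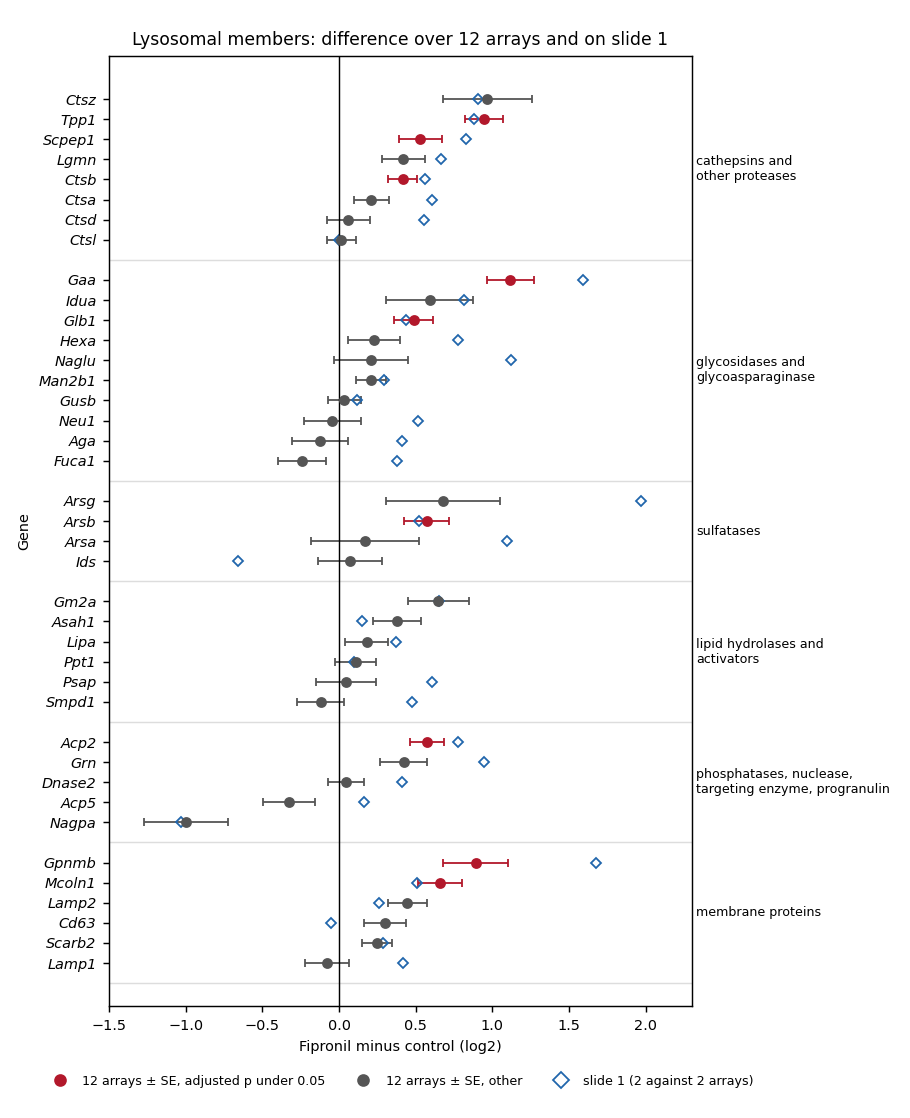
Difference between fipronil and control arrays (log2, horizontal axis) for the 39 members tested, grouped by role. Circles with bars are the difference over 12 arrays ± SE, red where the adjusted p was under 0.05 (9 genes), and open diamonds are the difference on slide 1, which lies above 0 in 35 of 39 genes.

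The count of 9 moved when single arrays were left out. It was 3 without control 2, 3 or 7 or fipronil 3, 4 without control 8 or fipronil 1 or 4, 5 without control 5 or fipronil 2, 6 without control 6, and 10 without fipronil 7 or 8. The number of all genes called, 678 with every array, moved as well. It was lowest, 228, without fipronil 3, and it was 889 without fipronil 7 and 2022 without fipronil 8. Gaa, Tpp1 and Acp2 passed in all 12 of these fits. Gpnmb passed in 6, Mcoln1 in 5, Ctsb in 4, and Glb1, Arsb and Scpep1 in 2 each, always with a positive difference. When each array was scaled to its median instead, 2 members were called higher and 1, Nagpa, lower, with 150 and 435 of all genes. That scaling moved the median difference of all genes from -0.08 to -0.18, and the members' median stayed 0.31 above it. Subtracting a normexp background estimate before the 75th percentile moved the median of all genes to 0.17, with 19 members called higher and the members' median 0.13 above that of all genes.

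The 12 cathepsins and other proteases include the enzymes that carry out most protein breakdown in the lysosome. Of these, 8 were tested, 3 rose, and all 8 differences were above 0, from 0.01 for Ctsl to 0.97 for Ctsz. Tpp1 removes tripeptides from the amino end of small proteins, and its loss causes a form of neuronal ceroid lipofuscinosis. Its lowest, median and highest control values were -1.61, -1.32 and -1.25, and its fipronil values -0.71, -0.49 and -0.13. The groups did not overlap. The difference was 0.95 ± 0.13 (SE, 6 arrays a group), or 1.93-fold, with a limma adjusted p of 0.00551. In the fit that blocks on slide, the slide 1 difference was 0.88 ± 0.21 (adjusted p = 0.108), and slide 3 exceeded slide 2 by 0.98.

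Ctsb, cathepsin B, is a cysteine protease widely used as a lysosomal marker. It read 4.06, 4.16 and 4.35 in controls (lowest, median and highest) and 4.46, 4.63 and 4.66 with fipronil, again without overlap. The rise was 0.41 ± 0.10, or 1.33-fold (limma adjusted p = 0.0307), and it was 0.56 on slide 1 and 0.34 across slides 2 and 3. Scpep1, a serine carboxypeptidase, read 1.41, 1.64 and 1.96 in controls and 1.87, 2.25 and 2.46 with fipronil. The 2 lowest fipronil arrays, both of slide 3, lay below the highest control, while on slide 1 both fipronil arrays lay above both controls. Its rise was 0.53 ± 0.14 (limma adjusted p = 0.0470), and it was 0.83 on slide 1 and 0.38 between slides 2 and 3.

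Ctsz, a carboxypeptidase of the cathepsin family, had the largest mean difference of the proteases, 0.97 ± 0.29, but did not pass (limma adjusted p = 0.0654). Its controls spread from 0.04 to 1.63 and its fipronil arrays from 1.27 to 2.51, so the groups overlapped and the range of each group was wider than the difference. Ctsd, cathepsin D, the main aspartic protease of the lysosome, read 2.66, 2.89 and 3.09 in controls and 2.62, 2.92 and 3.38 with fipronil. The groups overlapped, and the difference was 0.06 ± 0.14 (limma adjusted p = 0.826), which turned to -0.040 with median scaling and -0.15 with normexp and the 75th percentile. It was 0.55 on slide 1 and -0.18 across slides 2 and 3. Lgmn, the asparaginyl endopeptidase that matures several cathepsins, gave 0.42 ± 0.14 (adjusted p = 0.0913) and Ctsa, which protects β-galactosidase and sialidase in a complex, 0.21 ± 0.12. On slide 1 Ctsz gave 0.91, Lgmn 0.66 and Ctsa 0.61. Ctsl gave 0.01 ± 0.09 with control arrays between 3.19 and 3.33, the tightest of the 8 genes, and -0.0032 on slide 1. Ctsc, Ctsh, Ctsk and Ctss were not well above background on any array and were not tested.

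The 12 glycosidases, with the glycoasparaginase Aga counted among them, strip sugars from glycogen, glycoproteins, gangliosides and glycosaminoglycans. Here 10 were tested, 2 rose, and the rest ranged from -0.24 for Fuca1 to 0.59 for Idua. Gaa, on chromosome 10, breaks down glycogen, and its deficiency is Pompe disease. Its single-spot probe, shown because this gene had the largest rise of all members, reads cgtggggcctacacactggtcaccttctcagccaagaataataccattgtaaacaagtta. Controls read -1.17, -0.54 and -0.41, and fipronil arrays 0.15, 0.47 and 0.71. No fipronil array overlapped a control. The rise was 1.12 ± 0.15, or 2.17-fold (limma adjusted p = 0.00551). On slide 1 it was 1.59 ± 0.20, or 3.02-fold, from control values of -1.17 and -0.86 to fipronil values of 0.45 and 0.71. The slide-blocked fit gave this an adjusted p of 0.0222, a random slide effect gave 0.0261, and the difference across slides 2 and 3 was 0.88.

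Glb1, acid β-galactosidase, whose activity is widely used as a marker of senescent cells, read -0.83, -0.43 and -0.26 in controls and -0.29, 0.09 and 0.15 with fipronil. The slide 1 fipronil arrays were its lowest, and 1 of them lay just below the highest control. The rise was 0.49 ± 0.12 (limma adjusted p = 0.0417). It was 0.44 on slide 1 and 0.51 between slides 2 and 3. Idua, which cleaves iduronic acid from dermatan and heparan sulfate, gave 0.59 ± 0.29 (adjusted p = 0.217), with fipronil arrays spread from -3.78 to -1.55. Naglu, which degrades heparan sulfate, gave 1.12 on slide 1 and -0.25 across slides 2 and 3. Hexa (0.23), Man2b1 (0.21), Gusb (0.04), Neu1 (-0.04) and Aga (-0.12) overlapped between the groups. On slide 1 all 10 differences were above 0, among them Idua (0.81), Hexa (0.78), Man2b1 (0.30), Gusb (0.12), Neu1 (0.51), Aga (0.41) and Fuca1 (0.38), whereas across slides 2 and 3 only 4 were. Manba and Galc were not well above background on any array.

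The 6 sulfatases remove sulfate from glycosaminoglycans and sulfatides. Of these, 4 were tested and 1 rose. Arsb, which acts on dermatan and chondroitin sulfate, read -2.01, -1.93 and -1.53 in controls and -1.82, -1.18 and -0.999 with fipronil. Fipronil sample 7 fell within the control range and the other 5 fipronil arrays above it. The rise was 0.57 ± 0.15, or 1.49-fold (limma adjusted p = 0.0434), and it was 0.52 on slide 1 and 0.60 across slides 2 and 3.

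Arsg, which removes sulfate from heparan sulfate, had weak signals on its used probe. It was well above background on the 4 controls of slide 2 and the 2 fipronil arrays of slide 1, and on no other array. On slide 1 the control values of -5.93 and -5.47 were not well above background, while the fipronil arrays read -3.53 and -3.93, at least 3.06-fold higher than the lowest signals called well above background on those control arrays. The slide-blocked fit gave the slide 1 difference an adjusted p of 0.0411. With a normexp background the same difference was 0.25 after quantile normalization (adjusted p = 0.208) and 0.34 with the 75th percentile (0.190). Over all 12 arrays the difference was 0.68 ± 0.37 (limma adjusted p = 0.277), and the slide 3 fipronil arrays, between -4.17 and -3.36, overlapped the slide 2 controls, between -4.10 and -3.46. A second Arsg probe was well above background on 1 array and differed by -0.01. Ids, iduronate 2-sulfatase, gave -0.66 on slide 1 and 0.43 across slides 2 and 3, and Arsa, which acts on sulfatide, gave 1.09 and -0.29. Galns was well above background on 1 array only, and no probe was found for Sgsh.

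**Figure D2:**
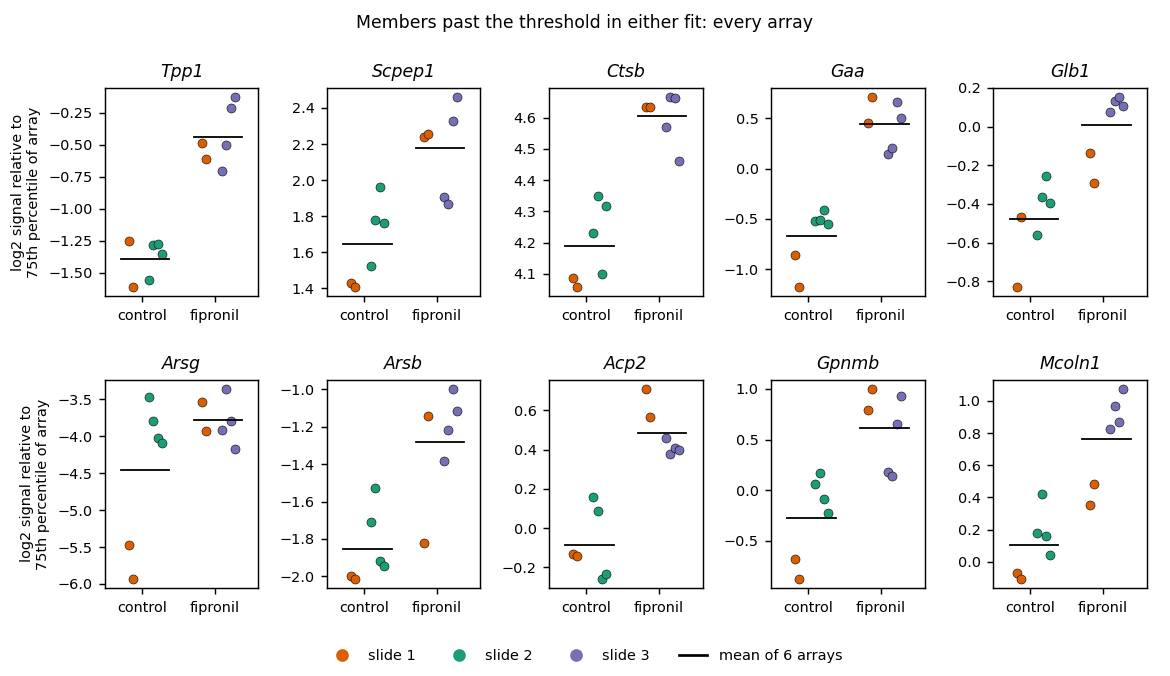
Log2 signal relative to the 75th percentile of the array (vertical axis, own scale in each panel) for the 9 members that rose over 12 arrays and Arsg, which passed on slide 1. Points are single arrays coloured by slide and lines are means of 6 arrays. In Gaa, Gpnmb, Mcoln1, Ctsb, Arsb, Scpep1 and Arsg the 2 slide 1 controls lie below the 4 slide 2 controls.

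The 6 lipid hydrolases and sphingolipid activators were all tested and none passed. Their differences ran from -0.12 for Smpd1 to 0.65 for Gm2a, the activator with which hexosaminidase degrades the ganglioside GM2 (0.65 ± 0.20, limma adjusted p = 0.0701). Gm2a gave 0.65 both on slide 1 and across slides 2 and 3. Asah1, acid ceramidase, gave 0.38 ± 0.16 (adjusted p = 0.153), and each of its fipronil arrays (-1.51 to -0.52) lay above each control (-1.77 to -1.53), the top value being that of fipronil sample 4. Its slide 1 difference was 0.15. Smpd1, acid sphingomyelinase, read 2.10, 2.43 and 2.62 in controls and 2.04, 2.13 and 2.78 with fipronil. Its 2 slide 1 fipronil arrays were its highest treated arrays, and the 4 of slide 3 lay between 2.04 and 2.15, below 5 of the 6 controls. The difference was 0.48 on slide 1 and -0.42 across slides 2 and 3. Lipa, the acid lipase that frees cholesterol and fatty acids from lipoproteins, read 0.07, 0.27 and 0.47 in controls and 0.01, 0.48 and 0.88 with fipronil, and its groups overlapped (0.18 ± 0.14, adjusted p = 0.445; 0.37 on slide 1). Psap, the precursor of the saposins, gave 0.04 and Ppt1, which removes palmitate from proteins, 0.11, with 0.61 and 0.0975 on slide 1.

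The phosphatases Acp2 and Acp5, the nuclease Dnase2, the targeting enzyme Nagpa and progranulin, Grn, were all tested, and Acp2 rose. Acp2, a lysosomal acid phosphatase made as a membrane protein, read -0.26, -0.14 and 0.16 in controls and 0.38, 0.44 and 0.71 with fipronil. The groups did not overlap. The rise was 0.57 ± 0.11, or 1.49-fold (limma adjusted p = 0.0177). It was 0.77 on slide 1 and 0.47 between slides 2 and 3. Grn, which is cleaved into granulins in the lysosome and whose loss causes frontotemporal dementia or ceroid lipofuscinosis, gave 0.42 ± 0.15 (adjusted p = 0.111). Its slide 1 difference was 0.95 (adjusted p = 0.0938, slide-blocked fit) and that across slides 2 and 3 was 0.16. Acp5, the tartrate-resistant phosphatase of osteoclasts and macrophages, gave -0.33 and Dnase2 0.04, with 0.17 and 0.41 on slide 1.

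Nagpa uncovers the mannose 6-phosphate tag that sends hydrolases to lysosomes. Its difference was negative and did not pass. It was well above background on all 6 controls and on none of the 6 fipronil arrays, so it entered the test through the controls alone. Its controls read -4.44, -3.98 and -2.69 and its fipronil arrays -5.64, -4.73 and -4.44, and control sample 2 stood above the rest. It was at least 1.58-fold lower with fipronil, with a measured difference of -0.998 ± 0.27 (limma adjusted p = 0.0510), and the measured difference was -1.03 on slide 1 and -0.98 across slides 2 and 3.

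Of the 7 membrane proteins, 6 were tested and 2 rose. Gpnmb is a transmembrane glycoprotein found in lysosomes and melanosomes. It read -0.87, -0.16 and 0.17 in controls and 0.14, 0.72 and 0.998 with fipronil. Fipronil sample 2 lay just below the highest control, sample 6, and the other 5 treated arrays lay above all controls. The rise was 0.89 ± 0.21, or 1.85-fold (limma adjusted p = 0.0334). On slide 1 the controls were -0.87 and -0.68 and the fipronil arrays 0.79 and 0.998, a difference of 1.68 ± 0.26 (adjusted p = 0.0487, slide-blocked fit). Across slides 2 and 3 it was 0.50. The 10 spots of its probe varied within an array by a median SD of 0.14, against 0.42 between control arrays and 0.37 between fipronil arrays.

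Mcoln1, a cation channel that releases calcium from lysosomes, read -0.10, 0.10 and 0.42 in controls and 0.35, 0.85 and 1.07 with fipronil. The 4 slide 3 arrays and fipronil sample 8 lay above all controls, and fipronil sample 7 lay below control sample 6. The rise was 0.66 ± 0.15, or 1.58-fold (limma adjusted p = 0.0270). It was 0.51 on slide 1 and 0.73 between slides 2 and 3. Lamp1, the most widely used lysosomal membrane marker, read 0.95, 1.11 and 1.36 in controls and 0.81, 0.94 and 1.52 with fipronil. Its 2 slide 1 fipronil arrays lay above all controls and the 4 of slide 3 below 5 of the 6 controls, and the difference was -0.08 ± 0.14 over 12 arrays (adjusted p = 0.775), 0.42 on slide 1 and -0.32 across slides 2 and 3. Lamp2, the receptor of chaperone-mediated autophagy in one of its isoforms, gave 0.45 ± 0.13 (adjusted p = 0.0573) on its brighter probe and -0.08 on its second probe, so its probes disagreed. Cd63, a tetraspanin of late endosomes, gave 0.30 ± 0.14 and Scarb2, which carries glucocerebrosidase to lysosomes, 0.25 ± 0.10. On slide 1 Lamp2 gave 0.26, Cd63 -0.05 and Scarb2 0.28. Cln3 was not well above background on any array.

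**Figure D3:**
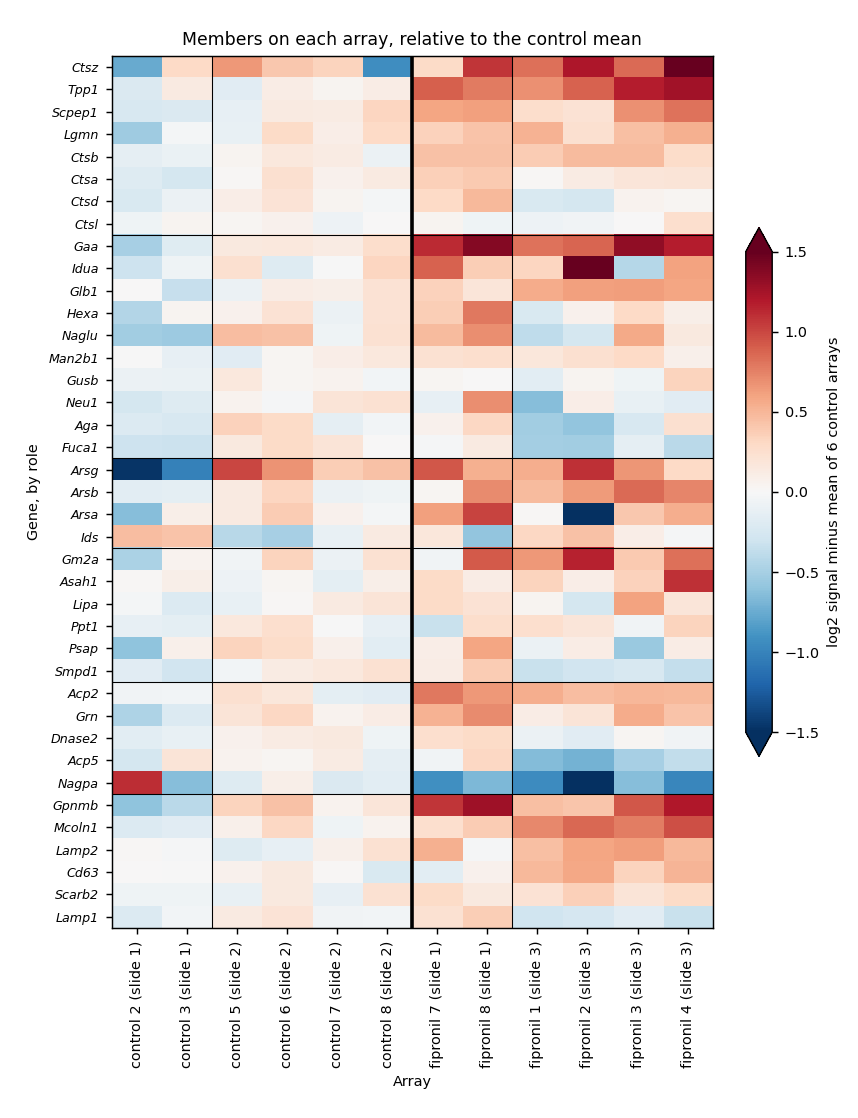
Log2 signal of each of the 39 members on each array, minus the mean of the 6 controls (colour, ending at -1.5 and 1.5; stronger deviations take the end colour). Arrays are columns, ordered by treatment and slide, and genes are rows, ordered by role and by the difference over 12 arrays; the slide 1 controls are bluer than the slide 2 controls, and the slide 1 fipronil arrays are red in most rows.

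Over the whole set, on fipronil samples 7 and 8 of slide 1, 32 and 35 of the 39 members lay above the control mean, with median deviations of 0.29 and 0.38. On the 4 fipronil arrays of slide 3, between 25 and 31 members lay above it, with medians of 0.20 to 0.33. Control samples 2 and 3 of slide 1 had 6 and 10 members above the control mean and medians of -0.21 and -0.10, while the slide 2 controls had 24 to 35 members above it and medians of 0.05 to 0.16. The medians of all genes ranged from -0.09 to 0.04 over the 12 arrays.

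On slide 1 taken apart, where slide cannot differ between the treatments, 35 of the 39 members were higher with fipronil, against 48.4% of all genes. Both fipronil arrays lay above both controls for 30 members, against 25.2% of all genes, and below both for 2 (28.5%). The median difference was 0.51 for the members and -0.02 for all genes, and 19 members were higher at an unadjusted p under 0.05 (8.58% of all genes). After adjustment over all genes, 3 members passed in the slide-blocked fit, namely Gaa, Gpnmb and Arsg. That fit called 12 genes in all (0.0886%), 8 higher (0.0591%) and 4 lower (0.0295%). No member passed when control 2, control 3 or fipronil 8 was left out of that fit, and 2 passed without fipronil 7. Of all genes, 16 were called without control 2, 3 without control 3, 0 without fipronil 8 and 125 without fipronil 7. Gpnmb missed the threshold with median scaling (adjusted p = 0.0529) and with a filter of at least 4 arrays above background (0.0561), and no member passed without a filter. With 2 arrays a treatment on 1 slide, an exact permutation test for a single gene cannot give a two-sided p under 0.333, so none was made. With slide as a random effect, Gaa and Tpp1 (adjusted p = 0.0453) passed, against 0.155% of all genes called, 0.0665% higher and 0.0886% lower.

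The slide 1 controls also differed from the other controls. Slide 1 minus slide 2 was below 0 for 36 of the 39 members in untreated cells, with a median of -0.25, and for all genes the median was -0.04. Both slide 1 controls lay below all 4 slide 2 controls for 17 members, among them 6 of the 9 that rose, against 18.1% of all genes. In fipronil-treated cells the median of slide 1 minus slide 3 was 0.11. What part the choice of slide 1 controls plays in the slide 1 differences was not tested.

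Across slides 2 and 3, where slide and treatment change together, 25 of the 39 members were higher with fipronil (41.5% of all genes), with a median of 0.16 against -0.10 for all genes. In that contrast 24.4% of all genes were called. Of the members 9 were called higher, with 9.8% of all genes, and 3 lower, with 14.6%. For 22 members the difference was positive both on slide 1 and across slides 2 and 3, against 16.9% of all genes. The 2 differences were themselves compared in 1 fit. They differed for 7 members (adjusted p under 0.05, 9.14% of all genes), and in each the slide 1 difference was the higher one (5% of all genes, with 4.14% the other way): Arsg, Naglu, Gpnmb, Fuca1, Smpd1, Lamp1 and Ctsd. Gpnmb was positive in both contrasts, and 5 others were positive on slide 1 and negative across slides 2 and 3. For Arsg the slide 1 controls and the slide 3 fipronil arrays were not well above background, so both of its differences rest partly on such values.

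**Figure D4:**
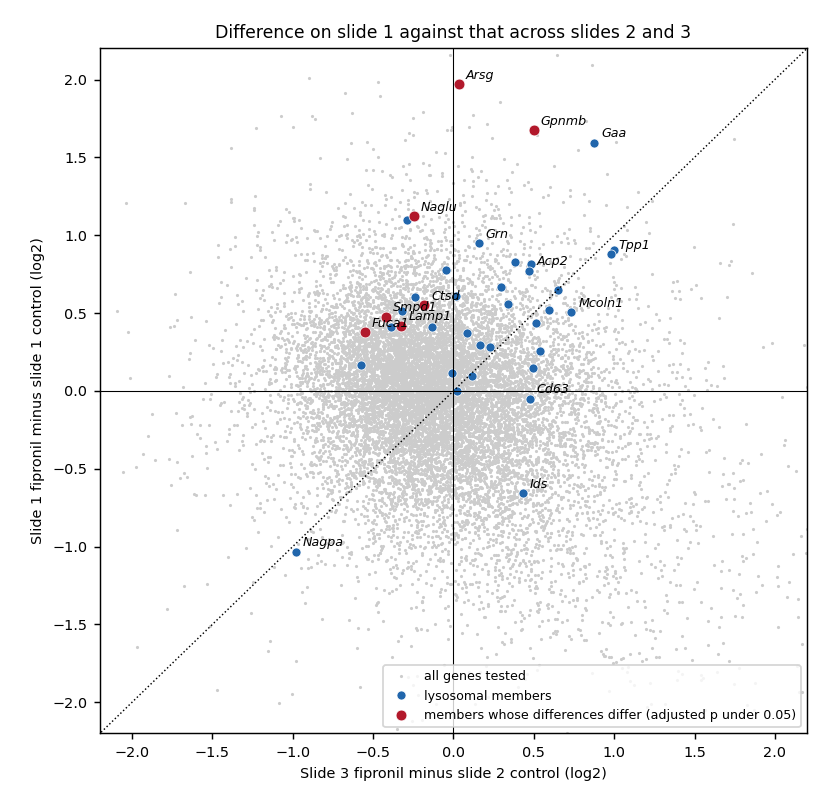
Fipronil minus control on slide 1 (vertical axis, log2) against slide 3 fipronil minus slide 2 control (horizontal axis, log2) for the 39 members over all genes tested in grey; 62 genes lie outside the axes and the dotted line marks equal values. Red marks the 7 members whose differences were unequal at an adjusted p under 0.05, all above the dotted line.

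The other genes of the lysosome, 89 transcription factors, delivery factors, further hydrolases and membrane proteins, were counted in the same fits. Of the 66 tested, 2 rose and 1 fell over 12 arrays, against 2.24% and 2.77% of all genes. Their median difference was -0.12, against -0.08 for all genes. Ostm1, the partner of the lysosomal chloride transporter ClC-7, read -1.52, -1.37 and -1.02 in controls and -0.82, -0.57 and -0.52 with fipronil, without overlap (0.71 ± 0.11, limma adjusted p = 0.00959), and it gave 0.53 on slide 1 and 0.80 between slides 2 and 3. Igf2r, the large mannose 6-phosphate receptor, rose by 0.40 ± 0.10 (limma adjusted p = 0.0400), and 1 fipronil array lay below the highest control. Its slide 1 difference was 0.12, against 0.54 between slides 2 and 3. Tmem106b, a lysosomal membrane protein linked to frontotemporal dementia, fell by 0.85 ± 0.14, or 1.80-fold (limma adjusted p = 0.0120), with every fipronil array below every control, and it gave -0.68 on slide 1 and -0.94 between slides 2 and 3. None of these 3 passed in the slide-blocked fit or with a random slide effect. With single arrays left out, Ostm1 and Tmem106b passed in all 12 fits and Igf2r in 3. On slide 1, 48 of the 66 were positive (48.4% of all genes), with a median of 0.28, against -0.02 for all genes. Across slides 2 and 3, 20 were positive (41.5% of all genes), with a median of -0.20, against -0.10 for all genes. In that contrast 3 were called higher and 22 lower, with 9.8% and 14.6% of all genes. Without fipronil 7 the count called over the other arrays was 6, with 889 of all genes. Without fipronil 8 it was 12, with 2022 of all genes.

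The transcription factors that bind CLEAR elements did not pass over 12 arrays. Tfe3 gave -0.44 ± 0.18 (limma adjusted p = 0.149). Its slide 1 difference was 0.10, and slide 3 differed from slide 2 by -0.71 (adjusted p = 0.0140), with all 4 slide 3 arrays below all controls. It passed with normexp and the 75th percentile (adjusted p = 0.0249) and with array weights (0.0347). Tfeb was well above background on 5 controls and 2 fipronil arrays and gave -0.35 ± 0.28 (adjusted p = 0.461), with 0.29 on slide 1. With normexp and the 75th percentile it gave 0.69 and passed (adjusted p = 0.00113). Mitf gave -0.14 ± 0.30 (adjusted p = 0.815), and Tfec was not well above background on any array. Among the slide 1 arrays Mitf read lower with fipronil (-0.44 ± 0.55), whereas Tfe3 and Tfeb read higher.

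Markers of other cell types that are rich in lysosomes were mostly dim. Of 11 microglia and macrophage genes, 3 were tested (Cd14, Cx3cr1 and Fcer1g) and none was called, while Aif1, Ptprc, Itgam, Csf1r, Adgre1, C1qa and Spi1 were not well above background on any array. Of the osteoclast genes 1 was tested (Nfatc1), of the melanocyte genes 1 (Mlana), and of the astrocyte genes none. Neither Nfatc1 nor Mlana was called over 12 arrays. On slide 1 Nfatc1 was 0.95 higher with fipronil (unadjusted p = 0.00379, adjusted p = 0.126 in the slide-blocked fit of limma). Mlana, above background on 5 control and 2 fipronil arrays, was 1.69 higher there (0.0153 and 0.170). In both genes the slide 1 difference exceeded that across slides 2 and 3 (limma adjusted p = 0.0221 and 0.0362), as it did for 7 members. Cd14 went the same way, with 0.36 on slide 1 and -0.76 across slides 2 and 3 (adjusted p = 0.0245 in the same limma contrast). Fcer1g, above background on 5 control and 2 fipronil arrays, went the other way, with -1.12 and 0.98 (0.0273). Cx3cr1 gave -0.24 and 0.52. The part of these markers in the members' results was not tested. The labelled cell type was only partly visible, as 2 of 10 dopaminergic markers were tested. Th was above background on all 12 arrays (-0.48 ± 0.20, limma adjusted p = 0.152). It gave 0.0965 on slide 1 and -0.77 across slides 2 and 3. Aldh1a1 was above background on 6 control and 2 fipronil arrays (-0.84 ± 0.26, limma adjusted p = 0.0678). It gave -0.98 on slide 1 and -0.77 across slides 2 and 3. The other 8 were not tested, and Slc6a3, Ddc, Pitx3, En1 and Foxa2 among them had no array above background. Of the 8 neuronal markers, Tubb3 and Ncam1 were tested and Ncam1 was higher (0.73, limma adjusted p = 0.0171). On slide 1 Ncam1 gave 0.25 (adjusted p = 0.465, slide-blocked fit), and 0.97 between slides 2 and 3. Tubb3, above background on 5 control and 4 fipronil arrays, gave -0.355 ± 0.479 (limma adjusted p = 0.678). It gave 1.09 on slide 1 and -1.08 across slides 2 and 3. Map2, Rbfox3, Snap25, Syt1, Syp and Stmn2 were not well above background on any array. In bulk RNA, a change in the share of cells and a change in RNA per cell cannot be told apart.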

How the data were processed

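Total RNA of 12 N27 samples was labelled with Cy3 and hybridised to 1-colour Agilent arrays, per the labels' protocols. The deposited scanner files give intensity per spot with background and outlier flags, and Feature Extraction is version 10.1.1.1 per the file headers and 10.7 per the submitters' processing notes. The authors also deposited a table of quantile-normalized log2 values. Over 22609 spots above background on every array, each of its columns correlated best with its own array (lowest r 0.9999), its medians lay between 3.04 and 3.06, and it was used as an alternative. Of 45598 probes, 21109 were named through a RefSeq accession, 6684 through a current symbol and 424 through an older one, and 17381 kept the name in the file.

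The log2 of the scanner software's processed signal minus the array's 75th percentile over non-control spots was used, and spots of a probe were averaged. Outlier spots were dropped unless every spot of the probe was flagged, so a flagged spot of a single-spot probe was kept. Probes had to be well above background on at least 6 of 12 arrays, and the probe with the highest mean represented a gene. The flag counts as met for a probe when most of its spots carry it. Differences were tested with limma 3.58.1 (lmFit and eBayes, R 4.3.3) over 13542 genes with Benjamini-Hochberg adjustment, without a slide term, with slide as a fixed block (the treatment term is then the slide 1 difference, with its spread estimated over all slides), and with slide as a random block (correlation 0.26). The contrast of slide 1 with slides 2 and 3 used 4 slide-by-treatment means. An "at least" fold sets the brighter mean against, on each dim array, the higher of the lowest signal well above background and the probe's own value. The code was tested on simulated data.

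Full values are given for members past 0.05 in the fits without a slide term or with slide as a fixed or random block, for the 2 brightest members of a role with none, and for Lamp1, Ctsd and Ctsb; other values were chosen for description. Members and lists were chosen with earlier results of these data known, so their shared direction is no independent evidence. No spot was saturated, no scan date was used as a batch, and no coordinates were taken from the array annotation.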

Additional observations from a re-analysis of the deposited data

Results flagged for a closer look

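The slide 1 difference and the difference across slides 2 and 3 were unequal, in a direct test in limma with 4 slide-by-treatment means, for 7 members. Slide 1 exceeded slides 2 and 3 by 1.94 on the log2 scale for Arsg (adjusted p = 0.0175), 1.37 for Naglu (0.0409), 1.18 for Gpnmb (0.0433), 0.93 for Fuca1 (0.0283), 0.90 for Smpd1 (0.0244), 0.74 for Lamp1 (0.0401) and 0.74 for Ctsd (0.0494). Across slides 2 and 3 a difference between slides cannot be told apart from that between treatments. For Arsg, the slide 1 controls and the slide 3 fipronil arrays were not well above background.

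In 4 members 1 fipronil array stood far from the other 5 of its group by Dixon's criterion, which chance meets in about 1 of 20 groups, and 78 groups were tested. Fipronil sample 4 read -0.52 for Asah1, above the next value of -1.27, and 3.51 for Ctsl, above 3.30. Fipronil sample 8 read 1.84 for Lamp2, below 2.31. Fipronil sample 2 read -5.64 for Nagpa, below -4.78, where no fipronil array was well above background.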

How the results depend on the processing

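The direction of all 9 members that rose held under all alternatives run for them, but their calls depended on scaling, filter, slide and single arrays. The number of members called higher was 9. It was 2 with median scaling, 19 with normexp background and the 75th percentile, 16 without a filter on dim probes, 3 with slide as a fixed block, 2 with slide as a random block, 0 on the 4 slide 1 arrays alone (2 against 2), 0 with the replicate block, and 3 to 10 with single arrays left out; other alternatives gave 8 to 12. Members called lower, 0 at first, were 1 with median scaling, 1 without the filter, 2 with array weights, 4 on slides 2 and 3 alone, and 0 to 2 with single arrays left out. Other lysosomal genes called, 3 at first, were 6 with normexp and quantile normalization, 32 with normexp and the 75th percentile, 22 without the filter, 6 with the filter on all 12 arrays, 0 with either slide block, 14 with array weights, 0 on slide 1 alone, 22 on slides 2 and 3 alone, and 2 to 12 with single arrays left out. All genes called, 678 at first, were 6776 with normexp and the 75th percentile, 16313 without the filter, 12 with slide as a fixed block, 21 with slide as a random block, 2219 with array weights, 0 on slide 1 alone, 3044 on slides 2 and 3 alone, and 228 to 2022 with single arrays left out. The share of calls that were higher was 44.7%, 25.6% with median scaling and 75.5% with normexp and the 75th percentile. With slide as a fixed block, the 3 members called became 0 without the filter and 0 to 2 with a slide 1 array left out. Of all genes, 3 were called without the filter and 0 to 125 with a slide 1 array left out. The 7 members with unequal slide differences became 14 with median scaling and 19 with normexp and the 75th percentile. The shares of all genes under these settings are not given here, so the counts cannot be read as particular to the members. The slide subsets and the slide-blocked filters were chosen after seeing the data. The cause of these changes was not tested.

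The replicate numbers 2, 3, 7 and 8 occur in both groups, and deviations of same-numbered samples correlated at 0.43, 0.08, -0.11 and -0.31. Same-numbered samples lay on different slides, so these correlations cannot decide whether the samples were paired. The numbers were not used as pairs in the main fit. A fit with replicate block over these 8 arrays called 0 members, 0 other lysosomal genes and 0 of all genes.

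Some differences that had not passed changed sign. Smpd1 was 0.48 with slide as a fixed block and on slide 1 alone, 0.068 with slide as a random block and 0.011 with the replicate block. Lamp1 was 0.42, 0.42, 0.08 and 0.13 in the same settings. Ctsd was -0.040 with median scaling, -0.15 with normexp and the 75th percentile, -0.0079 with array weights, -0.18 on slides 2 and 3 alone and -0.0244 to 0.127 with single arrays left out. Tfeb was 0.69 with normexp and the 75th percentile and 0.29 on slide 1, with or without the other arrays in the fit, and Tfe3 was 0.10 there. Mitf was 0.11 with the mean of its probes, 0.0127 on slides 2 and 3 alone and -0.252 to 0.077 with single arrays left out.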
